A study of Homo sapiens with 6 samples.

Results

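The BET readers and pause release genes are 9 genes whose products bind acetylated histones or control how RNA polymerase II leaves its paused state near a promoter. They are BRD2, BRD3, CDK9, CCNT1, CCNT2, HEXIM1, NELFA, NELFB and SUPT5H. Acetylated histone H4 (H4ac) at their promoters was profiled by ChIP-seq in H1975, an established line of non-small cell lung cancer. Regions were taken from the 2 deposited tables where the nearest gene was one of the 9 and the region centre lay within 1 kb of its start site. This gave 19 of 63299 regions in the table of shTIP60-B and 20 of 66546 in that of shTIP60-C. All 9 genes had such a region in both tables, among 11085 genes that did.

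All cells carried a tetracycline-inducible hairpin and received 0.5 ug/ml doxycycline for 2 days. One group held a control hairpin (shControl), and the others a hairpin against TIP60, shTIP60-B or shTIP60-C. TIP60, the product of KAT5, is a lysine acetyltransferase that acts on histone H4 among other substrates. Each group had 1 H4ac library and 1 input library; input reads were not used here. Without replicates, the spread between cultures is unknown, and each deposited p compares 2 libraries, not 2 conditions. Whether the cells were clones or pools is not given in the sources used here.

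BET proteins carry paired bromodomains, which bind acetylated lysines on histone tails, histone H4 among them. Soon after initiation the polymerase is held by NELF and by DSIF, whose large subunit is SPT5. The kinase P-TEFb, made of CDK9 and cyclin T1 or T2, phosphorylates these factors and the polymerase, and elongation proceeds. HEXIM1 keeps a share of P-TEFb inactive in a particle with 7SK RNA, and BET proteins are among the factors that bring active P-TEFb to chromatin.

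The promoter windows below are printed because these genes mark the ends of the range of responses. By the larger of a gene's 2 ratios to shControl (centred M, defined with the ratios), NELFB differed most, CDK9 came next, and CCNT2 differed least. Each runs from 250 bases before to 50 after the start site in RefSeq on GRCh38.p14, 5′ to 3′ on the gene's strand. Capitals mark motif matches on either strand, which are GGGCGG in all these windows, CCAAT in that of CCNT2 and also CCGGAAG in that of CDK9; CCGCCC is GGGCGG read on the other strand. The H4ac regions are on hg19, so these windows were matched by gene name and not by position. BRD2 came after CDK9, by a short region in the shTIP60-B peak list and not in that of shControl. BRD2 has 4 start sites in the reference, and none was chosen. The windows are NELFB at chr9:137255077-137255376 (plus strand), CDK9 at chr9:127785784-127786083 (plus strand) and CCNT2 at chr2:134918572-134918871 (plus strand).
NELFB: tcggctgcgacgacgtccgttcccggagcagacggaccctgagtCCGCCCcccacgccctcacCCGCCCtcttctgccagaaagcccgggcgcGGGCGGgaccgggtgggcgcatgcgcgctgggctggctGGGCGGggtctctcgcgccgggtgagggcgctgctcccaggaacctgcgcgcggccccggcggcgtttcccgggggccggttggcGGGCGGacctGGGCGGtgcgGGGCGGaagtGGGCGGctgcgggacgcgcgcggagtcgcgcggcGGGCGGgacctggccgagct
CDK9: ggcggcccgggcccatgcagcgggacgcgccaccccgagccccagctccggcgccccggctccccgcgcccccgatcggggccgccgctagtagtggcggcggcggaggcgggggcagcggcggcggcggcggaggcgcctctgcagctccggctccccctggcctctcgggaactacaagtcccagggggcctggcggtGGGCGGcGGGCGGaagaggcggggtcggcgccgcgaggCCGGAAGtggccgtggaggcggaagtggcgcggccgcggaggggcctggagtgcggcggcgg
CCNT2: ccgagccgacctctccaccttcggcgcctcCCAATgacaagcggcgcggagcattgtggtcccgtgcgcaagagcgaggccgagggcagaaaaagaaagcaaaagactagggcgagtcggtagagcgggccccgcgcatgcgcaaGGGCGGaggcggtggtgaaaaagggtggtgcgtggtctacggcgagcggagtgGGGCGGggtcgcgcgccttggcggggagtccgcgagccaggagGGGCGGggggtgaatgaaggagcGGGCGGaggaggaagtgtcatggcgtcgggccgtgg

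The 9 genes had 14 such windows, each searched on both strands. GGGCGG, the core of the GC box, was in 11 windows of 8 genes and in 45.0% of 35116 windows of all genes. NELFB held 9 copies and BRD3 6, against 2 in CDK9 and 4 in CCNT2. Whether the number of copies goes with the ratios was not tested. CCAAT was in the CCNT1, CCNT2 and HEXIM1 windows (34.6% of all windows) and CCGGAAG, a core of ETS sites, in those of CDK9, CCNT1 and NELFA (10.3%). HEXIM1 alone among them held TATAAA (11.5%), and CCNT1 alone held CACGTG (7.26%). The motif TGACGTCA was in 0 of the 14 windows (1.85% of all windows). NELFB had 48 CG dinucleotides, CDK9 46, CCNT2 36 and BRD3 56, where the median over all windows was 14. The distal window of CCNT1 had 0.

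Levels were compared at the 36034 control peaks, which both tables list at the same positions, as reads per kb and per 1e6 reads in these peaks. The 3 libraries had 3638815 (shControl), 2842710 (shTIP60-B) and 6746689 (shTIP60-C) reads there, so counting error was smallest with shTIP60-C. The KAT5 promoter had 350 reads with shTIP60-B, where shControl had 402, while the shTIP60-C library had 882 and shControl 405; a hairpin acts on the transcript, so this does not check the knockdown. The epithelial markers EPCAM, KRT8, KRT18, CDH1 and EGFR all had promoter regions, and of 4 markers of other lineages only COL1A1 did. Parentheses hold 95% intervals of counting error alone.

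BRD2 and HEXIM1 had the strongest H4ac of the 9 genes in all 3 libraries. The BRD2 region had a level of 84.8 (80.4 to 89.4) in shControl, 78.6 with shTIP60-B and 81.4 with shTIP60-C. The HEXIM1 region had 83.1 (76.0 to 90.7), 87.4 and 82.5. In shControl these exceeded 99.05% and 98.97% of 12149 promoter control peaks, whose median was 19.5. The BRD2 region was also long, 4435 bp where the median was 1186 bp.

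NELFA and the cyclin genes lay in the upper part of the range. NELFA, a subunit of the negative elongation factor, had levels of 43.7 (38.4 to 49.4) in shControl, 35.4 (30.1 to 41.4) with shTIP60-B, while shTIP60-C gave 47.1 (43.1 to 51.4). The control peak over the CCNT2 start is named for CCNT2-AS1, the antisense gene that starts beside it, and had 39.8, 39.2 and 38.7; its reads cannot be split between these genes. CCNT1 had 27.9, 27.6 and 26.7. The levels of both cyclin genes stayed within each other's counting intervals across the 3 libraries.

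CDK9 and NELFA had levels below shControl with shTIP60-B and above it with shTIP60-C. The CDK9 level was 23.2 (19.5 to 27.5) in shControl, 16.1 (12.6 to 20.1) with shTIP60-B, while shTIP60-C gave 30.3 (27.2 to 33.7). For both genes the intervals of the knockdown libraries did not overlap each other, and each overlapped that of shControl.

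BRD3 lay near the median of promoter control peaks, and NELFB and SUPT5H lay well below it in shControl. The downstream BRD3 region had 18.0, 16.6 and 17.7, and the upstream one 17.5, 20.2 and 19.8. NELFB had 9.16 (5.43 to 14.5), 13.0 (7.96 to 20.1) and 21.7 (17.2 to 27.0), and only the first and the last of these intervals were apart. The upstream SUPT5H region had 9.92 (5.78 to 15.9), 3.73 (1.21 to 8.71) and 8.18 (5.34 to 12.0), and the downstream one 8.76, 7.71 and 5.91. In shControl, taking the stronger region of a gene, the order thus ran BRD2, HEXIM1, NELFA, CCNT2, CCNT1, CDK9, BRD3, SUPT5H and NELFB. Intervals of neighbours in this order overlapped except between HEXIM1 and NELFA and between CCNT2 and CCNT1. Levels were not corrected by input reads, and what this adds to the order was not tested.

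**Figure D1:**
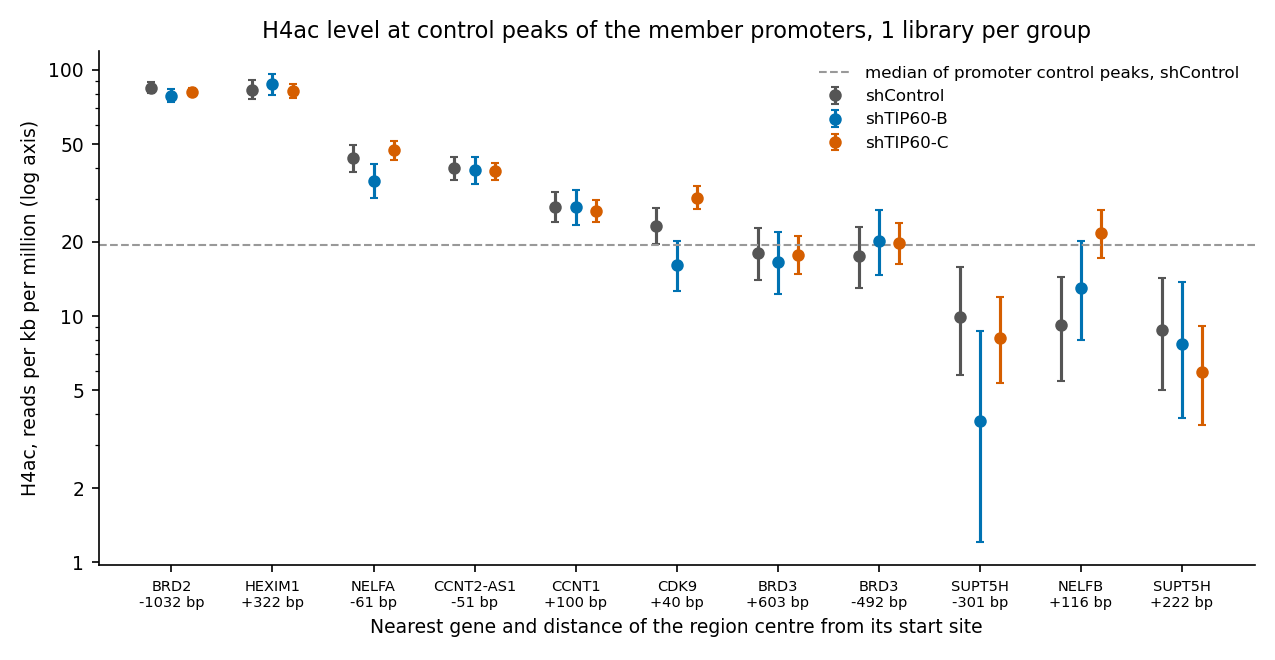
H4ac level in reads per kb and per 1e6 reads (log axis) at the control peaks of the member promoters, with the nearest gene and the distance of the region centre from its start site below each; bars are 95% Poisson counting intervals of 1 library. BRD2 and HEXIM1 lie near 80 in all 3 libraries, while NELFB (9.16 to 21.7) and CDK9 (16.1 to 30.3) spread widely between libraries. The upstream SUPT5H region (3.73 to 9.92) spreads too, but has few reads and its intervals all overlap. The CCNT2-AS1 region covers the CCNT2 start.

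The comparison of each knockdown library with shControl asked where promoter H4ac differed after TIP60 knockdown. Ratios (M) are log2 of knockdown over control as in the authors' deposited table, rescaled by the authors, and centred M is M minus the median M of all regions on the chromosome. The rescaling removes any change shared by all regions. It was not the same for every region, so the level and the M of a region can differ in direction. On chromosome 9, where BRD3, CDK9 and NELFB lie, the median M was 0.20 with shTIP60-B and 0.09 with shTIP60-C. Where a gene had several promoter regions, the one of highest mean signal A stood for it. The call rule asked for a 2-fold difference or more and a deposited p no higher than 1e-05.

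With shTIP60-B, 0 of the 9 genes were called, where 3.47% of 11541 genes were called lower and 1.28% higher. With shTIP60-C, NELFB was called higher and 0 of the 9 lower, where 0.139% of 11549 genes were called higher and 0.0433% lower. The median centred M of the 9 genes was -0.03 with shTIP60-B (range -0.88 to 0.82), and for shTIP60-C it was -0.0007 (-0.38 to 1.36). Over all genes these medians were -0.03 and 0.02. The 0.82 came from a short BRD2 region listed through the shTIP60-B library and not through shControl. The -0.38 came from a SUPT5H region listed through the control library alone. The counting interval lay below the chromosome median for CDK9 with shTIP60-B, 1 of 9 genes against 20.7% of all genes, and above it for 0, against 18.8%. With shTIP60-C it lay above for NELFB, 1 of 9 against 15.8%, and below for 0, against 12.4%. The counts are too few to read as more or fewer than the background.

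**Figure D2:**
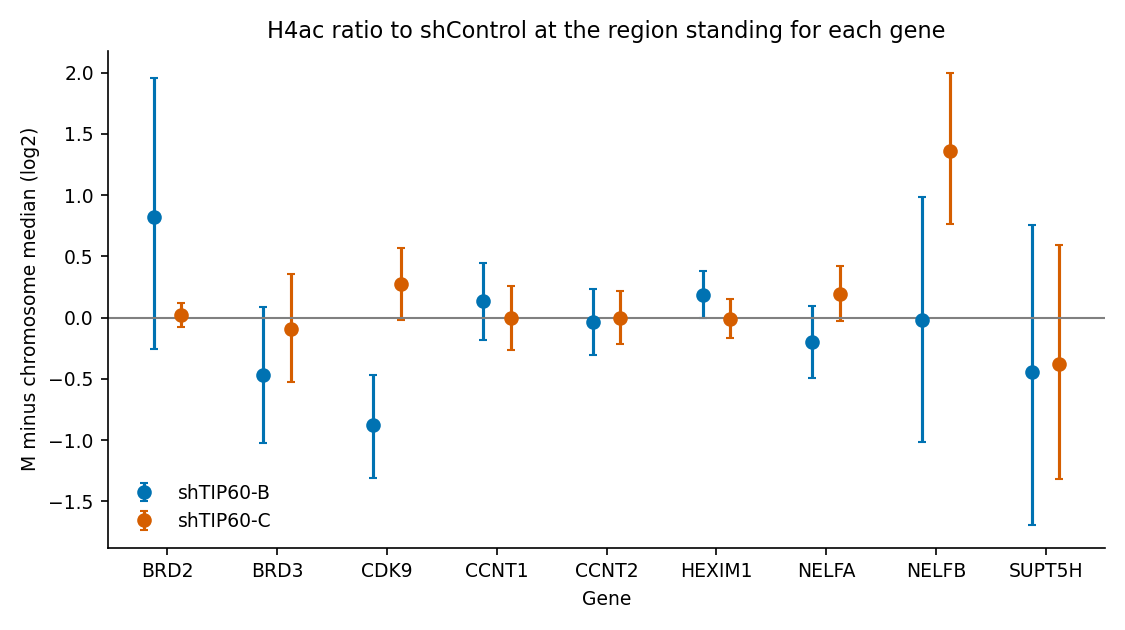
Centred M (log2, M minus the chromosome median) at the region that stands for each gene, for each TIP60 hairpin against the shared shControl library; bars are 95% counting intervals. At the regions drawn, CDK9 with shTIP60-B and NELFB with shTIP60-C lie clear of 0. The BRD2, SUPT5H and NELFB points come from different regions in the 2 tables. For NELFB these are the 540 bp control peak with shTIP60-B and the wide peak with shTIP60-C. At that control peak shTIP60-C gave 1.03 (0.28 to 1.86). The SUPT5H region not drawn for shTIP60-B, a peak of the control list alone, lies at -1.61 (-3.41 to -0.12).

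Among the BET readers, no promoter region was called. BRD2 was read from different regions in the tables because of the 1 kb limit. With shTIP60-B its region was a short one at the NM_001199456 start (chromosome 6, 32940446 to 32941050, hg19). It was a peak of the knockdown list alone, so it was listed through the library where it is high. It had 20 knockdown and 13 control reads and a centred M of 0.82 (-0.25 to 1.95). With shTIP60-C the BRD2 region was the long one (32935773 to 32939746, centre at -906 bp). That one had 2432 and 1353 reads and a centred M of 0.02 (-0.08 to 0.12). A weaker shTIP60-C region at the NM_001199456 start (32939960 to 32940706, centre at -528 bp) overlapped the short region seen with shTIP60-B. This weaker region was also a peak of the knockdown list alone, with 65 and 24 reads and a centred M of 0.48 (-0.22 to 1.22). The long region just missed the limit with shTIP60-B, its copies being centred at -1032 bp from one start and 1109 bp from another. At the control peak (32935416 to 32939850) it had 991 and 1369 reads with shTIP60-B, a centred M of 0.28 (0.16 to 0.40), and 2437 and 1369 reads with shTIP60-C, a centred M of 0.01 (-0.09 to 0.10). This region was added after its values were seen. Its uncentred M was 0.07 (-0.05 to 0.19) with shTIP60-B, so its place above 0 rests on the chromosome 6 median of -0.21. Its level with shTIP60-B, scaled to reads in control peaks, was below that in shControl, 78.6 (73.8 to 83.7) against 84.8 (80.4 to 89.4).

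BRD3 had a region on each side of its start. The downstream region, in intron 1 (chromosome 9, 136931937 to 136932878), had 50 and 67 reads and a centred M of -0.47 (-1.02 to 0.08) with shTIP60-B. The region used with shTIP60-C (136931844 to 136933046) had 131 and 68 reads and a centred M of -0.09 (-0.53 to 0.35). The share of reads in the downstream of the paired control peaks uses no scaling. It was 57.6% (48.2 to 66.7) in shControl, 52.1% (41.6 to 62.5) for shTIP60-B and 54.1% (47.5 to 60.7) for shTIP60-C, so the balance of the sides differed by less than counting error.

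Of the P-TEFb genes, CDK9, the kinase subunit, had the lowest ratio with shTIP60-B among the regions that stood for the 9 genes; as a mean over promoter regions SUPT5H was lower, at -1.03 against -0.83. Its region (chromosome 9, 130547524 to 130549166) is annotated as promoter and held 75 reads against 139 in shControl. Its M was -0.68 (-1.10 to -0.26) with p = 0.0012 in the authors' deposited table, and its centred M was -0.88 (-1.30 to -0.46), short of the call rule. With shTIP60-C the region (130547501 to 130549210) had 338 and 139 reads, M = 0.36 (0.07 to 0.66) and a centred M of 0.27 (-0.02 to 0.57). The narrower CDK9 peak of the shTIP60-B library (130547997 to 130549040) had 68 and 117 reads and a centred M of -0.79 (-1.24 to -0.34).

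CCNT1, which encodes cyclin T1, showed no difference over the whole promoter and a contrast inside it with shTIP60-B. The whole control peak (chromosome 12, 49109720 to 49111642) had 151 and 195 reads with shTIP60-B, a centred M of 0.13 (-0.18 to 0.45), and 347 and 195 reads with shTIP60-C, a centred M of -0.0045 (-0.26 to 0.26). The shTIP60-B library had separate peaks, called upstream and downstream by their centres. The upstream peak reached across the start, and the downstream peak lay wholly past it. The downstream peak in intron 1 (49109827 to 49110576) had 33 and 89 reads and fell, with M = -1.31 (-1.93 to -0.72) and p = 4.6e-06 in the authors' deposited table. The upstream peak (49110604 to 49111741) had 120 and 105 reads and M = 0.45 (0.06 to 0.85). The downstream peak was the 1 called of the 19 regions of the 9 genes with shTIP60-B, where 3.08% of promoter regions were called lower and 1.02% higher. Its exact binomial p from the counts scaled by table totals, an alternative to the deposited p, was 6.26e-05, and under it the region would not be called.

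The share of CCNT1 reads in the downstream peak uses no scaling between libraries. It does not split the reads at the start, which the upstream peak reaches across with both hairpins. It was 21.6% (15.3 to 28.9) with shTIP60-B, where the same pair of regions held 45.9% (38.7 to 53.2) in shControl. With shTIP60-C the peaks had slightly other bounds, and the share was 41.6% (36.3 to 47.0) against 47.7% (40.4 to 54.96). The interval with shTIP60-B lay below the others, which overlapped each other. The bounds of these peaks were set on the knockdown library itself, and what this adds to the contrast was not tested.

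CCNT2, which encodes cyclin T2, had small differences with both hairpins. Its region (chromosome 2, 135676121 to 135677286, promoter) had 204 and 269 reads and a centred M of -0.03 (-0.30 to 0.23) with shTIP60-B. With shTIP60-C the region (135676083 to 135677267) had 506 and 273 reads and a centred M of -0.0007 (-0.22 to 0.22). Both regions were knockdown copies of shared peaks, with bounds set on the knockdown library. They lay within the longer control peak named for CCNT2-AS1. By counting error alone, these intervals leave out a 2-fold difference between the libraries relative to the chromosome median. They do not cover the spread between cultures.

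HEXIM1, the inhibitor of P-TEFb, has a single exon, and its region covers the 5' end of it (chromosome 17, 43224122 to 43225885). It had 414 and 504 reads and a centred M of 0.19 (-0.0038 to 0.38) with shTIP60-B. With shTIP60-C the region (43224133 to 43225920) had 928 and 503 reads and a centred M of -0.01 (-0.17 to 0.15). HEXIM1 is known to respond at the transcript level to drugs that displace BET proteins; its H4ac level, among the strongest here, had narrow intervals and no call.

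The most marked rise of a member was at the gene of a single pausing factor, NELFB, with shTIP60-C. NELFB, a core subunit of NELF, had a weak peak in shControl. With shTIP60-C a wider peak was found across the start site (chromosome 9, 140148959 to 140150418), where 150 reads stood against 28 in shControl. It rose 2.72-fold, M = 1.44 (0.85 to 2.08), with p = 1.6e-06 in the authors' deposited table, and its centred M was 1.36 (0.77 to 1.99). With shTIP60-B the region was the control peak (140149599 to 140150138, exon 1), with 20 and 18 reads and a centred M of -0.02 (-1.02 to 0.98). That interval spans a rise of up to 0.98, and at this depth a rise of nearly 2-fold with shTIP60-B would lie within it.

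Within the NELFB peak of shTIP60-C, the narrower control peak of 540 bp had 79 and 18 reads and M = 1.12 (0.37 to 1.95), with p = 0.0050 in the authors' deposited table. The NELFB call thus rests on the peak as bounded in the knockdown library, and the control peak alone missed the p of the rule. The remaining 920 bp held 71 and 10 reads. The control peak thus held 52.7% (44.4 to 60.9) of the reads of the wide peak with shTIP60-C and 64.3% (44.1 to 81.4) in shControl, intervals that overlap. The wide NELFB peak was the 1 called of the 20 regions with shTIP60-C, where 0.0983% of promoter regions were called higher and 0.0342% lower.

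**Figure D3:**
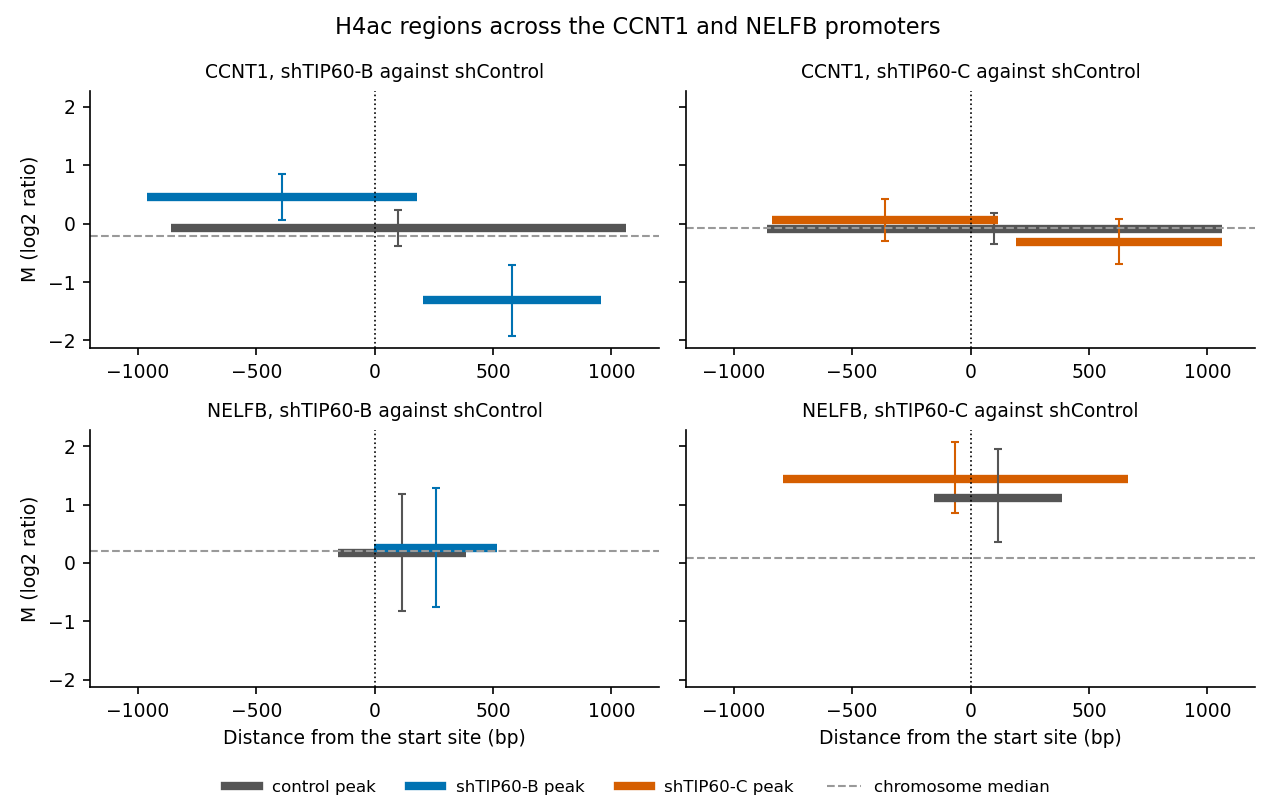
M (log2 ratio, with 95% counting intervals) of each H4ac region across the CCNT1 and NELFB promoters, drawn over the region's extent in bp from the start site; dashed lines are chromosome medians. The downstream CCNT1 peak with shTIP60-B lies at -1.31 and the wide NELFB peak with shTIP60-C at 1.44.

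NELFA had a centred M of -0.20 (-0.49 to 0.09) with shTIP60-B (chromosome 4, 2010144 to 2011834, 160 and 252 reads). With shTIP60-C it had 0.19 (-0.03 to 0.42) at the control peak (2010234 to 2011812, 502 and 251 reads), and the knockdown peak (2010110 to 2011445, 504 and 239 reads) had 0.27 (0.04 to 0.50). SUPT5H, which encodes SPT5, had 2 short peaks found in the control list alone, with few reads. The downstream one (chromosome 19, 39936260 to 39936761, 5' UTR) had 11 and 16 reads with shTIP60-B, a centred M of -0.44 (-1.69 to 0.76), and 20 and 16 with shTIP60-C, -0.67 (-1.69 to 0.38). The upstream one (39935650 to 39936120, promoter) had 5 and 17 reads, -1.61 (-3.41 to -0.12), and 26 and 17 reads, -0.38 (-1.32 to 0.59). Of its reads in shControl, 48.5% (30.8 to 66.5) lay downstream, against 68.8% (41.3 to 89.0) for shTIP60-B and 43.5% (28.9 to 58.9) for shTIP60-C.

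Over all regions of the 9 genes, counting intervals lay below the chromosome median at 4 of 19 regions with shTIP60-B and above it at 1, where 19.1% and 17.4% of promoter regions did so. The former were both CDK9 regions, the downstream CCNT1 peak and the upstream SUPT5H peak, and the latter was the upstream CCNT1 peak. The SUPT5H peak was in the control list alone, so it was listed through the library where it is high. Its interval below the median is thus a description. With shTIP60-C intervals lay above at 3 of 20 regions, both of NELFB and 1 of NELFA, and below at 0, where 13.9% and 12% of promoter regions did so. Shared peaks are listed as a knockdown and a control copy, so regions of a gene are not independent.

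Regions farther from the start had been annotated to 4 of the 9 genes. In the shTIP60-B table the BRD3 and CCNT2 regions below were peaks of the control list alone and the HEXIM1 region of the knockdown list alone, as was the CCNT2 region of the control list with shTIP60-C. Such regions were listed through the library where they are high, so intervals clear of 0 there are a description. An intergenic region at -7927 bp from BRD3 (chromosome 9, 136940741 to 136941395) had 6 and 27 reads with shTIP60-B, a centred M of -2.31 (-3.88 to -1.005), and 38 and 27 reads with shTIP60-C, -0.58 (-1.33 to 0.18). A region 49541 bp downstream of the CCNT2 start, in the last intron of another gene (chromosome 2, 135725654 to 135726213), had 5 and 21 reads, -1.97 (-3.74 to -0.53), and 20 and 21 reads, -1.04 (-2.003 to -0.09). A region at -2723 bp from HEXIM1 (chromosome 17, 43221553 to 43222369) was listed with shTIP60-B alone, with 38 and 17 reads and a centred M of 1.28 (0.42 to 2.19). None of these was called; the other distal rows were the long BRD2 region and, with shTIP60-C, a copy of the BRD3 region.

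The genes with centred M values nearest to those of NELFB with both hairpins, among 2942 genes with control reads within 2-fold of its own, were MAPRE3, ATP5D, LMBRD2, F2 and NBL1. Their centred M was between -0.15 and 0.24 with shTIP60-B and between 1.20 and 1.52 with shTIP60-C. MAPRE3, the nearest, had 25 and 27 reads and then 136 and 28. Likeness was the distance over these 2 values, so the narrow ranges follow from the choice of genes. Both values rest on the same control library, and for NELFB they come from different regions.

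Other elongation genes were taken from 8 lists of 60 names, of which 50 had a promoter region. With shTIP60-B, 1 of the 50 was called higher and 3 lower, where 1.28% and 3.47% of all genes were, and with shTIP60-C 0 were called, where 0.139% and 0.0433% were. The median centred M was -0.14 and -0.01. Intervals lay below the chromosome median for 13 and above it for 2 with shTIP60-B, where 20.7% and 18.8% of all genes did so. For shTIP60-C these counts were 9 and 4, where 12.4% and 15.8% of all genes did so.

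The 7SK particle and cyclin K kinases had 1 of 6 genes called lower with shTIP60-B (3.47% of all genes), LARP7, which encodes a protein that binds and stabilises 7SK RNA. LARP7 (chromosome 4, 113557602 to 113559186) fell, with 43 and 130 reads, p = 1.5e-09 in the authors' deposited table and a centred M of -1.29 (-1.82 to -0.78). With shTIP60-C it had 174 and 130 reads and a centred M of -0.42 (-0.75 to -0.08). CDK12, a kinase of the polymerase tail, was the highest of this list with shTIP60-B at 0.21, and CDK13 with shTIP60-C at 0.04. The list had a median of -0.43 and -0.11, where all genes had -0.03 and 0.02.

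The PAF1 complex and SPT6 list had 1 of 8 genes called in each direction with shTIP60-B (3.47% of all genes lower and 1.28% higher), both subunits of the PAF1 complex, which travels with elongating polymerase. PAF1 (chromosome 19, 39881102 to 39881987) fell, with 32 and 99 reads, p = 6.1e-08 in the authors' deposited table and a centred M of -1.41 (-2.03 to -0.82). LEO1 (chromosome 15, 52263148 to 52265081) rose, with 209 and 107 reads, p = 4.5e-16 in the authors' deposited table and a centred M of 1.37 (1.03 to 1.72). With shTIP60-C, PAF1 had 157 and 99 reads and a centred M of -0.26 (-0.63 to 0.12), and LEO1 206 and 102 reads and 0.11 (-0.24 to 0.47). CTR9 and WDR61 were the lowest and the highest with shTIP60-C, at -0.57 and 0.31. The list had a median of -0.39 and -0.09.

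Among other bromodomain genes, BRD7 (chromosome 16, 50402063 to 50403198), a subunit gene of a SWI/SNF complex, was called lower with shTIP60-B, with 43 and 107 reads and p = 5.0e-06 in the authors' deposited table. Its centred M was -0.68 (-1.22 to -0.15), since chromosome 16 as a whole was low, and with a fold taken from the centred M it did not pass. With shTIP60-C, BRD7 had -0.18 and BRD1 was the highest of the list at 0.26; BRD9 was the highest with shTIP60-B at 0.10. The remaining NELF and DSIF genes were not called: NELFE had 0.22 and SUPT4H1, the partner of SPT5, -0.20 with shTIP60-B, and NELFCD had 0.21 and SUPT4H1 -0.39 with shTIP60-C.

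In the super elongation complex list, which holds the AFF scaffolds and the ELL factors, MLLT3 was the lowest with both hairpins at -0.69 and -0.60, ELL3 the highest with shTIP60-B at 0.29 and MLLT1 with shTIP60-C at 0.84. CDK8, the kinase of the Mediator module, had the highest values of its list, 0.69 (0.27 to 1.12) and 0.89 (0.55 to 1.25), and CDK7, the kinase of TFIIH, the lowest, -0.62 and -0.62. Of the other elongation factors, TCEB3 (elongin A) was the lowest at -0.45 and -0.49 and RPRD1A the highest at 0.40 and 0.34. Of the polymerase subunit genes, POLR2J and POLR2C were the lowest and the highest with shTIP60-B at -0.49 and 0.22, and POLR2K and POLR2B with shTIP60-C at -0.47 and 0.34. None of the genes in this paragraph was called. Both values of a gene rest on the same shControl library.

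**Figure D4:**
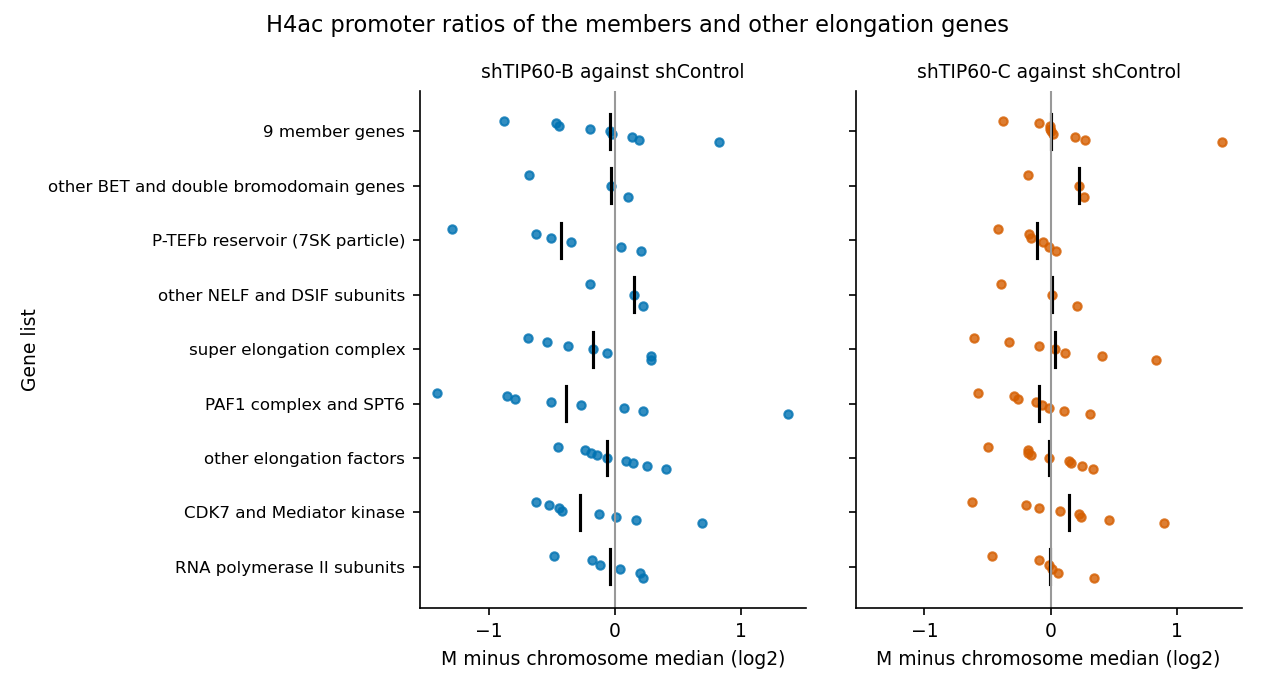
Centred M (log2) of each gene's promoter region, by list, for each TIP60 hairpin against shControl; points are genes and black bars list medians. The members' medians lie at -0.03 and -0.0007, NELFB is the point at 1.36 with shTIP60-C, and PAF1 and LEO1 are the ends of their list with shTIP60-B.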

How the data were processed

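H4ac chromatin of H1975 cells was crosslinked for 10 min in 1% formaldehyde, sheared to 100 to 1000 bp and sequenced as paired 75 bp reads, per the labels' protocols. Bowtie2, MACS version 1.4.2 and hg19 are named per the submitters' processing notes; MAnorm and HOMER are named, without version, per the file headers and names. Each deposited table gives whole-number read counts of both libraries, not normalised, the log2 ratio M and mean log2 signal A as rescaled by the authors, and a score that is the −log10 of a p-value, deposited without adjustment. No deposited p lies between 0.5 and 1, so the deposited p may be one-sided, and a two-sided p would then be 2 times as large; it was used as deposited. Median reads per region were 49 and 57 (shTIP60-B table) and 111 and 57 (shTIP60-C table), knockdown and control.

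Intervals of M come from the 2 counts by the exact Clopper-Pearson method, shifted by the authors' rescaling of the region; level intervals are exact Poisson and shares of reads have exact binomial ones. Chromosome medians use all regions of a table. Levels were scaled to reads in control peaks, and not to all regions of a table as planned, because the tables list different regions. Of 60 listed names 50 were matched, 3 by newer symbols in the RefSeq table of GRCh38.p14. Named genes are the 9 members, other elongation genes that were called, the highest and lowest per list and hairpin, and the 5 genes nearest to the member with the largest ratio. The members and lists were chosen with earlier results of these data known. Not every BET gene was analysed here. Samples were grouped by title, 1 library per group, so no test of conditions was made. Python 3.11.15, pandas 2.3.3 and scipy 1.17.1 were used. The exact interval and a call rule with the exact binomial p were tested on simulated counts scaled by table totals, without centring. The deposited p and the authors' rescaling were not simulated. Alternatives were other scalings, centrings, thresholds, p-values, promoter windows and handling of copies.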

Additional observations from a re-analysis of the deposited data

Results flagged for a closer look

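CDK9 stood out because the hairpins differed in opposite directions from the same control library. Its centred M was -0.88 with shTIP60-B and 0.27 with shTIP60-C, and the counting intervals of the uncentred M lay wholly below 0 with the first, -1.10 to -0.26, and wholly above 0 with the second, 0.07 to 0.66. After centring, the second interval reached -0.02. The difference between the hairpins was not tested, since each has 1 library.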

How the results depend on the processing

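NELFB was called with shTIP60-C, and 0 other member genes with either hairpin, under each alternative fold, p-value, scaling, centring and signal filter run. Its centred M with shTIP60-C ranged from 1.03 without the knockdown copies of shared regions, where the control peak stood for the gene and, at p = 0.0050 in the authors' deposited table, would not be called, to 1.44 without centring. Of 126 alternative values of member ratios, 123 stayed within their counting intervals. The exceptions were HEXIM1 with shTIP60-B scaled by table totals, at -0.03, and BRD2 with shTIP60-C as the mean over its promoter regions, at 0.25, or without knockdown copies, at 0.48. Scaled by table totals, 2 members, CDK9 and NELFA, lay below the chromosome median with shTIP60-B in place of 1. The median of the other elongation genes with shTIP60-B was -0.24 without centring and -0.19 in 10 Mb windows; the cause was not tested. The strongest BRD2 region at any distance was added after seeing the data. No paired analysis was possible because each group has 1 library. Depth limits the regions with few reads. With shTIP60-B the intervals of NELFB, SUPT5H, BRD3 and the short BRD2 region were wider than 1 on the log2 scale. So were those of the called downstream CCNT1 peak and of the BRD3, CCNT2 and HEXIM1 distal regions. With shTIP60-C the interval of the called wide NELFB peak was among those wider than 1.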
